A study of Mus musculus with 3 samples.

Results

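The gp130 cytokines and receptors are 9 genes, named here by their symbols in the 3 count matrices of mouse dorsal root ganglion (DRG) cells, out of 31053 genes counted. Each member was found by its symbol alone, and all 9 had a row in every matrix. Of the members, 5 encode receptor chains (Il6st, Lifr, Osmr, Cntfr and Il6ra) and 4 encode ligands (Cntf, Lif, Il6 and Osm).

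The cytokines of this family signal through gp130, the membrane protein that Il6st encodes. The LIF receptor (Lifr) or the oncostatin M receptor (Osmr) pairs with gp130 for LIF, CNTF and oncostatin M, whereas interleukin-6 and CNTF first bind a chain that does not signal by itself, encoded by Il6ra and Cntfr. The assembled receptor activates JAK kinases and the transcription factor STAT3, which switches on Socs3, an inhibitor that closes the loop. In the peripheral nervous system the family is known for its part in the response of neurons and glia to nerve injury.

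Single cells of the L3 and L4 DRGs were profiled by droplet sequencing of the 3′ ends of mRNA, in which each captured molecule carried a unique molecular identifier (UMI). There were 3 libraries, each a pool of 8 DRGs from 2 male C57BL/6J mice of 13 weeks. The naïve library came from untreated mice. The other libraries were made 7 days and 14 days after spared nerve injury of both hind limbs, a lesion that cuts branches of the sciatic nerve and leaves another intact. Every condition therefore had 1 library, the mice within a library could not be separated, and no test between conditions was possible. In place of a test, ratios and levels carry exact 95% intervals, which cover counting error only and not the spread between mice.

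After cells with fewer than 500 detected genes, cells with more than 20% mitochondrial UMIs and called doublets were left out, 3123 naïve cells, 2650 cells at day 7 and 3799 cells at day 14 remained, with median depths of 3059, 3972 and 4174 UMIs. The libraries shared between 1 and 6 cell barcodes per pair. Clusters were named from marker genes, and a name ending in "-like" marks a class rebuilt this way. The 9 members were left out of the genes used for clustering. The 8 classes with at least 50 cells in every library were compared: satellite glial cells (SGC-like; 611, 450 and 672 cells), myelinating Schwann-like (1154, 926 and 1330), non-myelinating Schwann-like (125, 76 and 128), neuron-like (121, 78 and 136), endothelial-like (296, 207 and 330), mural-like, the pericytes and smooth muscle of vessels (126, 102 and 178), fibroblast-like (85, 71 and 174) and macrophage-like (68, 210 and 246). The defining markers were present in the labelled tissue, with 10 of 10 neuron markers in the neuron-like cells and 6 of 7 SGC markers in the naïve and day 7 SGC-like cells, in which Kcnj3 was at 0. Clusters of 161, 35 and 27 cells led by the interferon-response genes Ifi27l2a and Ifit3b, of 192, 198 and 288 cells led by Spp1 and Lox, and of 115, 66 and 140 cells led by Ngfr and Runx2 stayed unnamed. The first of these, and an interferon-led cluster of 92, 27 and 38 cells among the myelinating Schwann-like cells, held more naïve cells than cells of either injured library. A cluster with neuron markers led by Sprr1a and Gm765, with a median of 1415 UMIs, held 10, 151 and 12 cells and entered no class because nearly all came from the day 7 library.

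Levels are given as CPM, the UMIs of the gene per 1000000 UMIs of the class, always in the order naïve, day 7, day 14. A gene is said to have changed in a class where its CPM ratio to the naïve library was at least 2-fold, with at least 20 UMIs summed over both libraries. Ratios are on the log2 scale.

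On the genome (GRCm38, coordinates 1-based) several members lie beside a relative. Osmr (chromosome 15, 6813577 to 6874969, minus strand) and Lifr (chromosome 15, 7090614 to 7197489, plus strand) are separated by 215645 bases. Osm (chromosome 11, 4236420 to 4241026) and Lif (chromosome 11, 4257557 to 4272514), both on the plus strand, are 16531 bases apart. Il6st (chromosome 13, 112464070 to 112510086, plus strand) lies 9812 bases from Il31ra, the partner of Osmr in the interleukin-31 receptor. Cntfr (chromosome 4, 41657498 to 41697089, minus strand) lies 2900 bases from Il11ra1, the interleukin-11 receptor chain. Il6ra is on chromosome 3 (89864059 to 89913196, minus strand), Il6 on chromosome 5 (30013114 to 30019981, plus strand) and Cntf on chromosome 19 (12763660 to 12765632, minus strand).

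The promoters of Il6 and Lif, ligand genes counted in small numbers of cells, and of Socs3, the feedback inhibitor, are shown from RefSeq (GRCm38.p6). Each runs 5′ to 3′ on the gene's strand and ends before any annotated exon. Capitals mark the AP-1 motif TGANTCA in Il6 and Lif and the STAT motif TTCNNNGAA in Socs3, where N is any base. The Il6 window is chr5:30012864-30013113 on the plus strand, the Lif window chr11:4257318-4257556 on the plus strand, and the Socs3 window chr11:117969452-117969616 on the minus strand.
Il6: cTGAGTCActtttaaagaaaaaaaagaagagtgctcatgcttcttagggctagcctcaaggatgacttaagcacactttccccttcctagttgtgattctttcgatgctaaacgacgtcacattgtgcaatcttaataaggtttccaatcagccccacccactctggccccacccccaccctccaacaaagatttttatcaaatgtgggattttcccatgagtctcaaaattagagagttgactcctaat
Lif: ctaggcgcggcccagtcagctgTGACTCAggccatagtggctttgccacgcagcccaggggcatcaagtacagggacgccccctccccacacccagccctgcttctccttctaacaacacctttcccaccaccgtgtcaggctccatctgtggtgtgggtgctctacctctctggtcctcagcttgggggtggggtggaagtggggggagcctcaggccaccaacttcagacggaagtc
Socs3: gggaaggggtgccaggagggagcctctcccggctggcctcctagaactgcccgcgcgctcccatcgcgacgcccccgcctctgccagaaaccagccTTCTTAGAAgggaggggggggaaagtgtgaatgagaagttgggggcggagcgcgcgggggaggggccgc

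The motif began 249 bases before the annotated start in Il6 and 228 bases before it in Lif. In Socs3 the STAT motif began 154 bases before the start. Both motifs read the same on both strands and were searched in the 250 bases before each start. TGANTCA was in 6.75% and TTCNNNGAA in 7.02% of 32851 promoters of 27025 genes. Among the members with an entry, TGANTCA was found in Il6, Lif and Cntf, and TTCNNNGAA in none of the windows. Osm had no entry. A match in this window is a description of the sequence and does not show that a factor binds there.

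Osmr was the member that passed the 2-fold threshold in the most classes. At day 7 no member reached the 2-fold threshold in any of the 8 classes. At day 14, Osmr was at least 2-fold higher in SGC-like, myelinating Schwann-like, non-myelinating Schwann-like and fibroblast-like cells and Il6ra in SGC-like and neuron-like cells, which makes 6 of 72 pairs of class and member, and no member was at least 2-fold lower in a class. To set these counts beside all genes counted in each class, the shares of genes that were at least 2-fold higher at day 14 were 2.43% in SGC-like, 1.87% in myelinating Schwann-like, 3.56% in non-myelinating Schwann-like, 6.80% in neuron-like, 3.14% in endothelial-like, 4.10% in mural-like, 5.86% in fibroblast-like and 11.4% in macrophage-like cells. The shares that were at least 2-fold lower at day 14 were, in the same order of classes, 0.737%, 1.16%, 3.70%, 1.46%, 1.66%, 2.18%, 3.91% and 5.12%. At day 7 the shares higher were 1.07%, 1.16%, 2.33%, 3.73%, 1.58%, 2.88%, 3.50% and 10.7%, and the shares lower were 0.671%, 0.942%, 3.96%, 1.94%, 1.62%, 2.57%, 4.55% and 4.54%. Of the 9 members in each class, at most the 5 receptor genes could be called. Those that were higher at day 14 numbered 2 in SGC-like cells and 1 in each of the myelinating and non-myelinating Schwann-like, fibroblast-like and neuron-like classes. The Il6ra calls rested on low counts, and in neither class was Il6ra shown to stand above background, as given below.

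**Figure D1:**
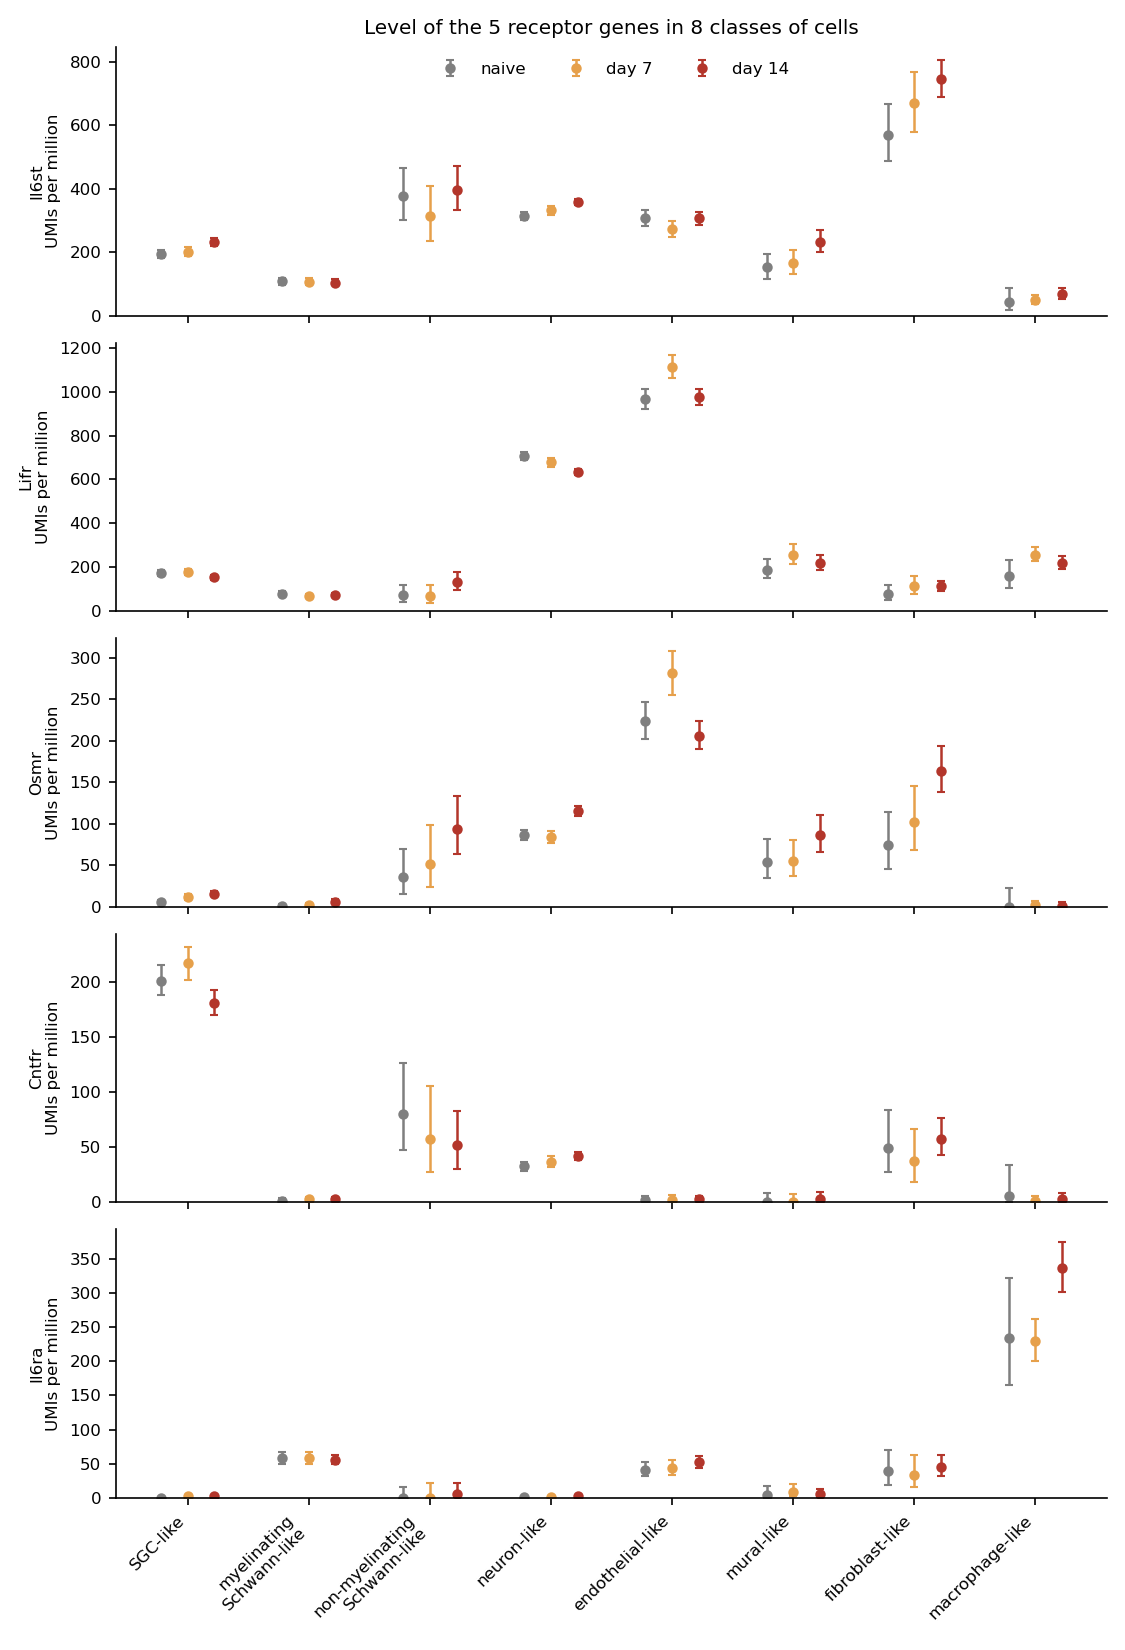
Level of Il6st, Lifr, Osmr, Cntfr and Il6ra in CPM (points) with exact 95% Poisson intervals (bars) in the 8 classes, for 1 library each of naïve, day 7 and day 14. Lifr and Osmr were highest in endothelial-like, Cntfr in SGC-like, Il6ra in macrophage-like and Il6st in fibroblast-like cells in every library.

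Il6st, the shared signalling chain, was present in every class. In the naïve library its CPM was highest in fibroblast-like cells (571, interval 487 to 667), followed by non-myelinating Schwann-like (377, 301 to 466), neuron-like (314, 302 to 326) and endothelial-like cells (307, 282 to 334), whose intervals overlapped from each to the next. SGC-like cells had 193 CPM (180.3 to 207), mural-like cells 152 (117 to 194) and myelinating Schwann-like cells 108 (96.1 to 119.9), again without a gap between neighbours in that order. Macrophage-like cells were lowest, at 43.0 CPM (17.3 to 88.6). The fibroblast-like cells stayed highest and the macrophage-like cells lowest in both injured libraries.

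Il6st did not reach a 2-fold difference in any class. SGC-like cells had 193, 202 and 233 CPM, and the log2 ratio at day 14 was 0.27 (0.14 to 0.39). Mural-like cells had 152, 167 and 233 CPM (log2 ratio at day 14 0.62, 0.20 to 1.06). Fibroblast-like cells had 571, 670.1 and 748 CPM (0.39, 0.14 to 0.65). In these classes the day 14 level was above the naïve level by more than counting error, whereas in myelinating Schwann-like cells the levels of 108, 106 and 104 CPM lay within it.

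Within the vessels, Il6st separated clusters of the same class. Endothelial-like cells led by Plvap and Clec14a, genes of fenestrated and venous vessels, had 1056, 925 and 875 CPM, whereas those led by Ly6c1 and Slco1a4, genes of barrier-forming capillaries, had 232, 238 and 272 CPM. A smaller endothelial-like cluster led by Nebl and Slc6a6, with 14, 22 and 32 cells, was not set beside them. Mural-like cells led by Ifitm1 and Abcc9 had 425, 552 and 536 CPM, against 40.0, 43.4 and 65.0 CPM in those led by the smooth muscle genes Acta2 and Myh11. In all 3 libraries the intervals of the 2 clusters in each pair did not overlap, and both orders were the same in every library.

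Lifr, the LIF receptor chain, was led by endothelial-like cells with 967, 1114 and 977 CPM and neuron-like cells with 709, 679 and 634 CPM, whose intervals did not overlap with each other or with any class below. In the naïve library, mural-like (189.5 CPM), SGC-like (174) and macrophage-like cells (159.8) formed a middle range with overlapping intervals. Myelinating Schwann-like (79.7), fibroblast-like (78.1) and non-myelinating Schwann-like cells (75.4) were lowest, and their intervals overlapped as well.

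Lifr reached 2-fold in none of the 8 classes. In macrophage-like cells it was 159.8, 258 and 221 CPM (log2 ratio at day 7 0.69, 0.11 to 1.33), and the naïve value rested on 26 UMIs. Endothelial-like cells had a log2 ratio of 0.20 at day 7 (0.11 to 0.30) and 0.01 at day 14 (-0.07 to 0.10). Neuron-like cells had -0.06 (-0.12 to -0.01) and -0.16 (-0.21 to -0.11). The share of neuron subtypes differed between the libraries, with 29.8%, 14.1% and 10.3% of the neuron-like cells of the Th-type and 31.4%, 30.8% and 18.4% of the Mrgprd-type, and its part in these small differences was not tested. Mrgprd-type neurons, non-peptidergic nociceptors, had 950.5, 881 and 936 CPM of Lifr and 469, 447 and 522 CPM of Il6st.

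Cntfr, the CNTF-binding chain, had its highest level in SGC-like cells in all 3 libraries, at 201, 217 and 181 CPM. The next classes were non-myelinating Schwann-like cells (79.8, 57.9 and 51.6 CPM), fibroblast-like cells (49.7, 37.2 and 57.8) and neuron-like cells (32.6, 36.7 and 42.1), whose naïve intervals overlapped in that order. Endothelial-like cells had 2.27, 2.53 and 3.28 CPM and myelinating Schwann-like cells 1.66, 2.69 and 3.18 CPM. Mural-like cells held 0, 0 and 2 Cntfr UMIs, and 3 cells with a UMI would be 2.38% of the 126 naïve cells.

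Cntfr was detected in 52.7%, 62.4% and 54.5% of SGC-like cells, at median depths of 5386, 7190.5 and 6962 UMIs. When each cell was thinned to 2000 UMIs, the expected shares were 28.4%, 29.2% and 24.3%. In macrophage-like cells, which should lack the gene, 1.47%, 0.476% and 1.22% of cells had a UMI, at median depths of 2097, 4290.5 and 3500.0 UMIs. Cntfr in SGC-like cells was thus far above this background.

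Cntfr was uneven among satellite glia. In the deeper cluster led by 2900052N01Rik and Ctnnd2, with Fabp7 and Cntfr itself among its 10 leading genes, Cntfr was 315, 337 and 292 CPM and a UMI was present in 86.0%, 89.3% and 85.9% of cells. In the cluster led by Ednrb and Egr3 it was 85.5, 96.2 and 86.5 CPM, with a UMI in 31.7%, 45.1% and 37.7% of cells. Lifr followed the same division, with 252, 261 and 211 CPM in the first cluster and 95.8, 96.8 and 105 CPM in the second. Since clusters are sets of cells chosen from the same counts, these differences are descriptions. Il6st did not follow it, with 193, 209 and 242 CPM in the first and 193, 195 and 225 CPM in the second.

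**Figure D2:**
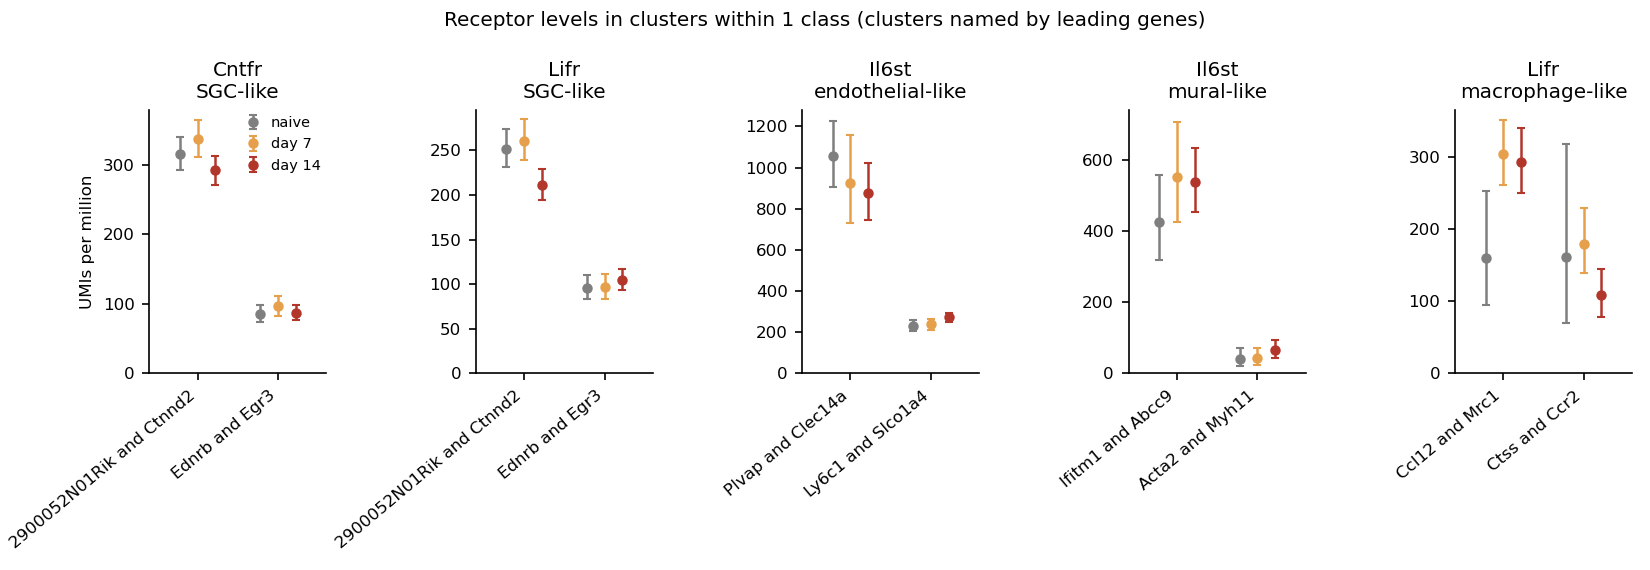
Level in CPM (points) with exact 95% Poisson intervals (bars) in clusters of 1 class, named by their leading genes, for the naïve, day 7 and day 14 libraries. The endothelial-like cluster led by Nebl and Slc6a6 is not drawn. Cntfr and Lifr were higher in the SGC-like cluster led by 2900052N01Rik and Ctnnd2, Il6st was higher in the Plvap-led endothelial-like and the Ifitm1-led mural-like cluster, and Lifr in macrophage-like cells was 303 and 292 CPM after injury in the Ccl12-led and 179.6 and 108 CPM in the Ctss-led cluster.

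Cntfr in SGC-like cells did not change at either time. The log2 ratio was 0.11 at day 7 (-0.03 to 0.25) and -0.15 at day 14 (-0.28 to -0.01). In neuron-like cells the day 14 ratio was 0.37 (0.15 to 0.58). Within a library, the naïve Th-type neurons, low-threshold mechanoreceptors, had 50.2 CPM (41.7 to 60.0) against 2.33 CPM (1.07 to 4.43) in the Mrgprd-type. At day 14 the Tac1-type neurons, peptidergic nociceptors, had 67.9 CPM (57.3 to 80) against 2.55 CPM (1.22 to 4.69) in the Mrgprd-type, which had 3.07 CPM at day 7. The Sst-type held 5, 5 and 18 Cntfr UMIs in 8, 4 and 15 cells.

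Il6ra, the interleukin-6-binding chain, was highest in macrophage-like cells, at 234, 229.6 and 336 CPM. The log2 ratio there was -0.02 at day 7 (-0.52 to 0.51) and 0.52 at day 14 (0.04 to 1.05), below 2-fold. Myelinating Schwann-like cells had 58.4, 58.2 and 55.9 CPM, endothelial-like cells 41.5, 43.7 and 52.5 CPM and fibroblast-like cells 39.0, 33.8 and 46.0 CPM, with overlapping naïve intervals. A UMI was present in 39.7%, 57.1% and 66.7% of macrophage-like and in 12.8%, 16.6% and 15.8% of myelinating Schwann-like cells. The unnamed cluster led by Spp1 and Lox, which carried all 8 myelinating Schwann markers, had 91.4, 83.1 and 63.2 CPM (day 14 log2 ratio -0.53, -0.95 to -0.11). Il6ra shares 242 of its 8642 exonic bases (2.80%) with the antisense gene Gm42809.

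In SGC-like and neuron-like cells Il6ra was near 0. SGC-like cells held 2, 11 and 18 UMIs (0.468, 2.82 and 3.22 CPM), and neuron-like cells 7, 9 and 28 UMIs (0.825, 1.42 and 2.22 CPM). Both classes passed 2-fold at day 14, with log2 ratios of 2.78 (0.72 to 5.94) and 1.43 (0.20 to 2.86). These are 2 of the 6 pairs set beside 2.43% and 6.80% of all genes above. Il6ra was detected in 0.327%, 2.00% and 2.38% of SGC-like cells. In mural-like cells, taken as the background for this gene, the shares were 1.59%, 3.92% and 2.25% at median depths of 3343, 4061 and 3480.5 UMIs, so the SGC-like values are read as background. For neuron-like cells the share was 5.79%, 10.3% and 15.4% at median depths of 71670.0, 75268 and 81746 UMIs, and 0.121%, 0.181% and 0.515% after thinning. Thinned mural-like cells had 0, 1.33% and 0.900%, above the neuron-like shares in the injured libraries but not in the naïve one. Non-myelinating Schwann-like cells had lower Il6ra than mural-like cells in the naïve and day 7 libraries, at 0, 0 and 6.07 CPM. Their upper limits were 16.4, 21.4 and 21.9 CPM, above the SGC-like and neuron-like levels. The mural-like values rest on few UMIs, with 4.74 CPM (0.574 to 17.1) in the naïve library. Il6ra in neuron-like cells was therefore not shown to stand above this background. The summed level of the 8 macrophage markers in SGC-like cells was 7.25, 17.9 and 56.6 CPM, with 6, 8 and 8 of them detected and Aif1 and Mrc1 at 0 in the naïve library, and its part in these values was not tested. In SGC-like cells without a UMI of an endothelial or macrophage marker, 1, 7 and 7 Il6ra UMIs were left. In neuron-like cells these markers summed to 4.12, 31.5 and 16.8 CPM.

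Osmr is the oncostatin M receptor chain. Its highest level was in endothelial-like cells, at 224, 281 and 206 CPM. Their day 7 log2 ratio was 0.33 (0.13 to 0.53), and at day 14 it was -0.12 (-0.31 to 0.07). Fibroblast-like cells had 74.5, 102 and 164 CPM from 21, 30 and 139 UMIs, with a log2 ratio of 1.14 at day 14 (0.47 to 1.87), which fell to 0.73 as a mean of each cell's fraction and 0.88 at Leiden resolution 2, below 2-fold. At day 14 their interval met that of the endothelial-like cells, whereas it had not in the naïve library. In the cluster led by Lum and Dcn, matrix genes, Osmr was 101, 120.3 and 198 CPM, and in the smaller cluster led by Igfbp6 and Sfrp4 it was 40.6 CPM in the naïve library and 50.7 CPM at day 14. In fibroblast-like cells the summed endothelial markers were 167, 247 and 323 CPM and 10 dissociation-response genes 1039.8, 1299.5 and 1738 CPM, and their part in the Osmr level was not tested.

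SGC-like cells had low Osmr, which stood higher in both injured libraries. They held 25, 45 and 88 UMIs in 21, 34 and 70 cells, or 5.85, 11.5 and 15.8 CPM. The log2 ratio was 0.98 at day 7 (0.24 to 1.75), just under the threshold, and 1.43 at day 14 (0.77 to 2.13). A UMI was present in 3.44%, 7.56% and 10.4% of cells, and after thinning in 1.29%, 1.92% and 3.08%. In macrophage-like cells, the background for this gene, the shares were 0 (0 of 68 cells, where 3 cells would be 4.41%), 0.952% and 0.407% at median depths of 2097, 4290.5 and 3500.0 UMIs.

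Both SGC-like clusters moved in the same direction. The Ednrb-led cluster had 2.82, 6.14 and 13.3 CPM (day 14 log2 ratio 2.24, 0.99 to 3.77), and the cluster led by 2900052N01Rik and Ctnnd2 had 8.85, 16.9 and 18.6 CPM (1.07, 0.28 to 1.92). The summed endothelial markers in SGC-like cells were 14.5, 17.4 and 23.6 CPM. Without the cells that held an endothelial or macrophage marker UMI, Osmr was 6.61, 10.3 and 16.2 CPM. Without the cell with most Osmr UMIs in each library it was 5.39, 10.6 and 14.9 CPM.

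In Schwann cells the same direction was seen at very different levels. Myelinating Schwann-like cells held 4, 7 and 29 UMIs, or 1.33, 2.09 and 6.14 CPM (day 14 log2 ratio 2.21, 0.70 to 4.18), with a UMI in 0.347%, 0.648% and 2.18% of cells. The day 7 share was below the 0.952% of the day 7 macrophage-like cells, which were deeper. In the naïve library 0 of 68 macrophage-like cells held a UMI, and these are too few cells to set a background share. In neither the naïve nor the day 7 library was the gene shown to stand above background at this depth. At day 14 the level was 6.14 CPM (4.11 to 8.82) against 1.01 CPM (0.0256 to 5.64) in macrophage-like cells. These intervals overlapped, at median depths of 3322 and 3500.0 UMIs. Non-myelinating Schwann-like cells held 8, 9 and 31 UMIs, or 35.5, 52.1 and 94.0 CPM (1.41, 0.25 to 2.74), with a UMI in 5.60%, 10.5% and 18.8% of cells. That call rested on how the class was drawn, since the log2 ratio was 0.67 with no cell filter and 0.77 and 0.82 at Leiden resolutions of 0.5 and 2. Mural-like cells had 54.5, 55.5 and 86.3 CPM (0.66, -0.04 to 1.42), within counting error of the naïve library. The cluster led by Ifitm1 and Abcc9 had 65.3, 144 and 144 CPM from 8, 17 and 38 UMIs (log2 ratio 1.14 at both times, -0.15 to 2.57 at day 7 and 0.01 to 2.45 at day 14), and that led by Acta2 and Myh11 had 50.1, 27.1 and 54.5 CPM (-0.88, -2.20 to 0.37, and 0.12, -0.85 to 1.14). Summed dissociation-response genes in non-myelinating Schwann-like cells were 1534, 839.7 and 849 CPM, lower in the injured libraries.

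**Figure D3:**
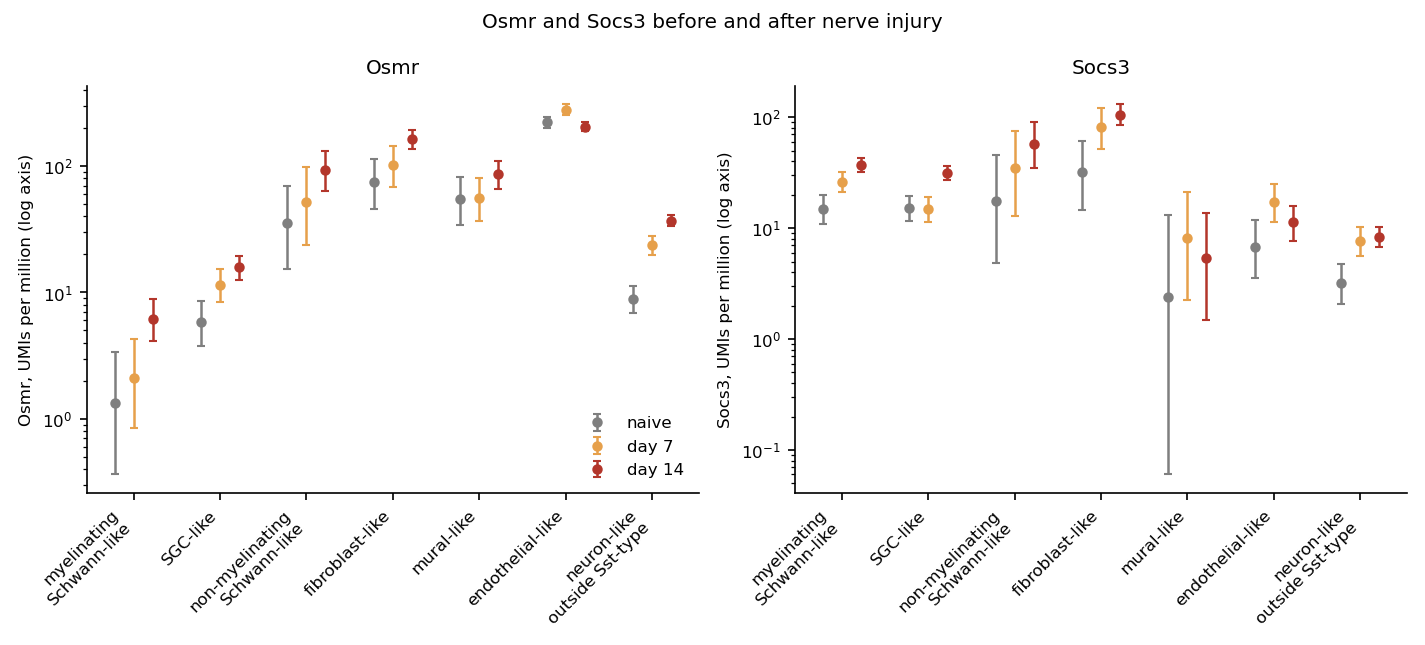
Osmr (left) and Socs3 (right) in CPM on log axes (points) with exact 95% Poisson intervals (bars) in 6 classes and in neuron-like cells outside the Sst-type, for the naïve, day 7 and day 14 libraries; macrophage-like cells are not drawn because both genes are at 0 there in the naïve library. Both genes stood higher at day 14 than in the naïve library in SGC-like, Schwann-like, fibroblast-like and neuron-like cells outside the Sst-type, while Osmr in endothelial-like cells stayed at 206 to 281 CPM.

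Among neurons, Osmr was concentrated in the Sst-type, itch-sensing neurons whose subcluster was led by Nppb and Il31ra. Osmr and Il31ra are also known markers of these cells. All 27 Sst-type cells held Osmr UMIs, and their level over the 3 libraries was 868 CPM. The 8, 4 and 15 Sst-type cells of the libraries held 665, 391 and 1036 of the 734, 530 and 1456 Osmr UMIs of all neuron-like cells, or 90.6%, 73.8% and 71.2%. Il31ra, whose product pairs with that of Osmr for the itch cytokine interleukin-31, was held even more closely by these cells, with 99.0%, 96.8% and 95.2% of its UMIs in neuron-like cells. In neuron-like cells as a whole Osmr was 86.5, 83.5 and 115 CPM, and this level moves with the number of Sst-type cells captured, which made up 6.61%, 5.13% and 11% of the neurons.

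Outside the Sst-type, Osmr was higher in both injured libraries. In 113, 74 and 121 such cells there were 69, 139 and 420 UMIs, or 8.82, 23.6 and 37.0 CPM (log2 ratio at day 7 1.42, 1.0 to 1.86, and at day 14 2.07, 1.70 to 2.46). A few cells carried much of this, and without the cell with most UMIs in each library the levels were 8.20, 17.0 and 32.1 CPM. The number of cells with a UMI was 34, 25 and 56, or 30.1%, 33.8% and 46.3%. In Mrgprd-type neurons Osmr was 7.78, 24.9 and 33.1 CPM, and without the top cell 6.71, 9.26 and 21.1 CPM. Il31ra outside the Sst-type was 0.383, 1.36 and 2.99 CPM, and 1 cell held 18 of the 34 UMIs at day 14. Summed injury genes such as Atf3, Sprr1a and Gal in neuron-like cells were 519, 2852 and 2343 CPM, and the makeup of the neuron-like class differed as given above for the subtypes.

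**Figure D4:**
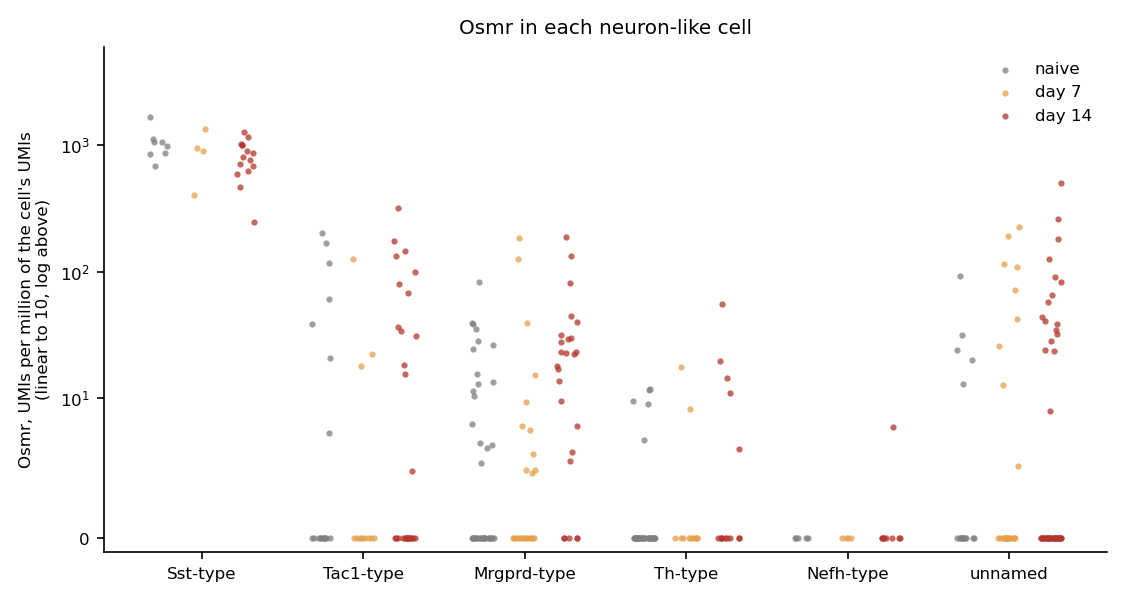
Osmr in each neuron-like cell (points, CPM of that cell, axis linear to 10 and logarithmic above) by neuron subtype and library; horizontal scatter within a column is random. All 27 Sst-type cells held Osmr, around the pooled level of 868 CPM, while every other subtype held many cells at 0.

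Receptor chains must meet in 1 cell, so cells with a UMI of each chain were counted. Il6st, Lifr and Cntfr, the 3 chains of the CNTF receptor, were found together in 27.0%, 35.3% and 29.9% of SGC-like and in 52.1%, 57.7% and 65.4% of neuron-like cells. Neuron-like cells were far deeper, and after thinning to 2000 UMIs the shares were 2.76%, 3.06% and 2.31% in SGC-like and 1.12%, 2.27% and 1.83% in neuron-like cells. In myelinating Schwann-like cells the shares were 0, 0 and 0.150%. Il6st with Lifr was found in 57.1%, 65.2% and 70.9% of endothelial-like cells, and after thinning in 27.1%, 32.6% and 33.1%. Il6st with Osmr was found in 39.9%, 54.1% and 52.4% of endothelial-like cells, and after thinning in 12.2%, 18.0% and 14.1%. In fibroblast-like cells this pair was found in 12.9%, 25.4% and 37.4%, and after thinning in 5.68%, 12.2% and 19.0%. In SGC-like cells the latter pair was found in 2.78%, 6.22% and 8.48%, and after thinning in 0.305%, 0.688% and 1.26%. Il6st with Il6ra was found in 2.94%, 12.9% and 17.5% of macrophage-like cells, and after thinning in 1.34%, 4.32% and 5.98%. The unthinned shares in all these classes move with the depth of the libraries.

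The ligand genes were rare. In all kept cells of a library, Il6 had 0, 3 and 14 UMIs, Osm 23, 17 and 49, Lif 8, 5 and 17, and Cntf 2, 2 and 1. No ligand reached 20 summed UMIs in any of the 8 classes, so no ratio is read for them.

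Il6 encodes interleukin-6, the ligand of the Il6ra-gp130 receptor. It was counted in neuron-like cells and in 1 other cell. At day 7 all 3 UMIs lay in 2 neuron-like cells, and at day 14, 12 of 14 UMIs lay in 10 of 136 neuron-like cells (7.35%), with 2 UMIs in 1 cell of the cluster led by Cd209a and Lsp1. In the naïve library 0 of 121 neuron-like cells had a UMI, where 3 such cells would be 2.48%. Il6 in mural-like and endothelial-like cells was at 0 in all libraries. Neuron-like cells were far deeper than the other classes, and their day 14 level was only 0.949 CPM (0.491 to 1.66). The upper limits of the 0 counts at day 14 ran from 0.660 CPM in SGC-like to 11.2 CPM in non-myelinating Schwann-like cells. The counts therefore do not show that Il6 is confined to neurons. Of the 10 neuron-like cells with Il6 at day 14, 5 were in the cluster led by Sprr1a and Gap43, genes of injured neurons, and held 11 to 60 UMIs of Atf3. That cluster had 2, 16 and 29 cells in the libraries. The other 5 were in the cluster led by Tac1 and Calca and held 0 or 1 Atf3 UMI and no Sprr1a UMI. Il6 was thus counted both in neurons with and in neurons without these injury transcripts.

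Osm, the ligand of the Osmr-gp130 receptor, was counted more often in neutrophil-like cells than in any other group, with 19, 6 and 38 UMIs (82.6%, 35.3% and 77.6% of the library's) in 6 of 16, 4 of 18 and 10 of 27 cells. Macrophage-like cells held 0, 5 and 6 UMIs and T and NK-like cells 3 in each library. Neurons held none, and SGC-like cells held 0, 1 and 1.

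Lif was spread over few cells. Fibroblast-like cells held 3, 1 and 8 UMIs, the cluster led by Spp1 and Lox 4, 2 and 3, and the cluster led by Ngfr and Runx2 4 UMIs in 2 cells at day 14. Cntf, a cytokine known from myelinating Schwann cells, had 1 UMI in each library in myelinating Schwann-like cells and 1, 1 and 0 in the cluster led by Spp1 and Lox. Cntf shares 847 of its 1073 exonic bases (78.9%) with Zfp91 on the same strand, and reads that fall in both genes are not assigned by counting of this kind. Zfp91 had 193, 234 and 227 CPM in myelinating Schwann-like cells. The level of Cntf mRNA therefore cannot be read from these counts.

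**Figure D5:**
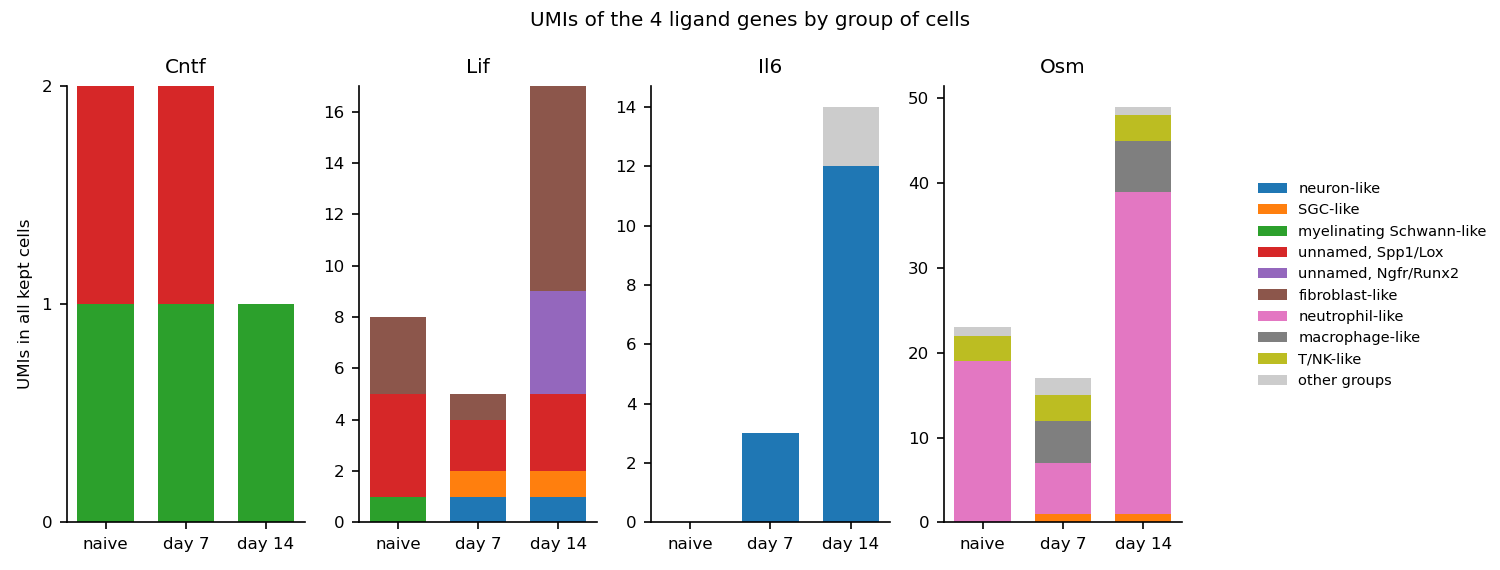
Number of UMIs of Cntf, Lif, Il6 and Osm in all kept cells of each library (bars, each panel with its own axis), divided by group of cells. Il6 was counted at 3 and 14 UMIs after injury, nearly all in neuron-like cells, and the neutrophil-like cells held 19, 6 and 38 of the 23, 17 and 49 Osm UMIs.

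The rest of the pathway was described by a list of 37 genes, made up of other cytokines and receptors of the family, kinases, STATs and adaptors, inhibitors, shedding proteases and known STAT3 targets. In SGC-like cells at day 14, 29 of the 37 were counted, of which 2 were at least 2-fold higher (Socs3 and Bcl3), beside 2.43% of all genes, and none lower, with a median log2 ratio of 0.30 against 0.03 over all genes. In neuron-like cells 5 of 30 at day 7 and 6 of 30 at day 14 were higher, beside 3.73% and 6.80% of all genes, and none lower, with medians of 0.37 and 0.41 against 0.02 and 0.09. In fibroblast-like cells 7 of 22 were higher at day 14, beside 5.86% of all genes (median 0.25 against -0.01). In myelinating Schwann-like cells 3 of 24 were higher (Socs3, Junb and Il4ra), beside 1.87% of all genes, and 1 lower (Socs1) at day 14, with a median of 0.28 against 0.01. Non-myelinating Schwann-like cells had 4 of 16 higher beside 3.56% of all genes. Macrophage-like cells had 2 of 22 higher (Ptpn11 and Socs3), a share below the 11.4% of all genes, and 1 lower.

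Socs3, the feedback inhibitor of gp130 signalling, passed 2-fold in more classes than any other gene of the list. In SGC-like cells it was 15.2, 14.9 and 31.7 CPM (day 14 log2 ratio 1.06, 0.64 to 1.49). In myelinating Schwann-like cells it was 14.9, 26.3 and 37.5 CPM (1.33, 0.85 to 1.83). Non-myelinating Schwann-like cells held 4, 6 and 19 UMIs (17.7, 34.7 and 57.6 CPM) and fibroblast-like cells had 31.9, 81.2 and 106 CPM. Socs3 thus passed 2-fold at day 14 in all 4 classes in which Osmr did, and in others where Osmr did not. In 3 of them the call was lost under some settings, with a lowest day 14 log2 ratio of 0.25 in non-myelinating Schwann-like cells with no cell filter, 0.85 in fibroblast-like cells as a mean of each cell's fraction and 0.87 in SGC-like cells gated one by one by markers. Neuron-like cells had 3.06, 8.19 and 9.10 CPM (log2 ratio 1.42 at day 7 and 1.57 at day 14), although the Osmr level of the whole class did not reach 2-fold. With each neuron gated by markers these ratios were -1.84 and 0.68, so neither call held there. In endothelial-like cells Socs3 was 6.82, 17.1 and 11.3 CPM, past 2-fold at day 7 only (1.32, 0.29 to 2.44). In macrophage-like cells 0, 32 and 37 UMIs were counted, at least 0.81 and 1.02 higher on the log2 scale if 3 UMIs are set for the naïve library.

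Stat3 and Jak1, which carry the signal, moved less. Stat3 was 135, 164 and 195 CPM in SGC-like cells (day 14 log2 ratio 0.54, 0.39 to 0.69), 83.6, 117 and 133 CPM in myelinating Schwann-like cells (0.67, 0.45 to 0.88) and 426, 531 and 527 CPM in neuron-like cells (0.31, 0.25 to 0.36). In macrophage-like cells its levels of 166, 165 and 156 CPM lay within counting error. Jak1 was 114, 115 and 119 CPM in SGC-like cells and 389, 414 and 579 CPM in neuron-like cells (day 14 log2 ratio 0.57, 0.52 to 0.63).

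Further genes passed 2-fold at both times in some of the classes. In neuron-like cells these included Cish, another inhibitor of cytokine signalling (2.36, 5.67 and 6.73 CPM), Cebpd, a transcription factor (5.77, 12.9 and 12.0 CPM), and Timp1, a protease inhibitor (0.471, 3.31 and 1.58 CPM). Mural-like cells had higher Stat5b (11.8, 30.8 and 39.1 CPM) and Junb (40.3, 92.5 and 108 CPM). Fibroblast-like cells had higher Stat5b (24.8, 71.1 and 50.7 CPM) and Fos (92.3, 250.4 and 256 CPM), and endothelial-like cells higher Il4ra (log2 ratios 1.15 and 1.33). Fos is also 1 of the dissociation-response genes, so its level can move with the handling of the tissue. Clcf1 was counted at 0, 2 and 38 UMIs in the unnamed cluster led by Ngfr and Runx2, which also held 2 Il6ra UMIs in the naïve library and 18 at day 14 (log2 ratio 2.32, 0.25 to 5.47, in a cluster where 6.02% of genes were at least 2-fold higher). In the unnamed interferon-led cluster, Lifr and Cntfr were at least 2-fold lower at day 14 (log2 ratios -1.01 and -1.46), where 27 cells held 11 and 8 UMIs of them and 11.2% of genes were at least 2-fold lower.

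Genes whose level was most like that of a member were ranked over 24 points, the 8 classes in 3 libraries, by Pearson's correlation of log2(CPM + 1) among 10423 genes. Points of 1 library share their depth and points of 1 class their cell type, so the values are a description. Il6st was most like Tshz3 (0.905), Cpt1c (0.900) and Clu (0.869), and Lifr was like Sgpp2 (0.908) and St6galnac3 (0.904). For Osmr these were Mapk12 (0.951), Clu (0.934) and Hoxb5 (0.930), for Cntfr Srcin1 (0.932), Sfrp1 (0.888) and Cdh10 (0.882), and for Il6ra Uvrag (0.875), Srgn (0.869) and Arhgap18 (0.863). Among the members themselves, Il6st and Osmr reached 0.843.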

How the data were processed

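The deposited files hold whole-number UMI counts per gene and cell, which the authors made with Cell Ranger 3.0.2 on mm10, per the submitters' processing notes; no per-sample column was left unused. The lesion is named as in the labels. The members, the pathway list, the markers and the rules were chosen with earlier results of these data known. Kept cells had 500 or more genes and no more than 20% of UMIs from mitochondrial genes. Doublets were scored per library by Scrublet, as in scanpy, with an assumed rate of 5%, and 90 of 9662 cells (0.931%) were removed. After scaling to 10000 UMIs and log transformation, 2000 variable genes, without the members and the pathway list, gave 30 components, 15 neighbours and Leiden clusters at resolution 1 (scanpy 1.11.5, leidenalg 0.10.2). A cluster took a name from at least 3 markers, each in at least 20% of its cells and at least 1.5-fold above the rest, and stayed unnamed where its 10 leading genes went against it. CPM was read from UMIs summed over a class with at least 50 cells, or a cluster or subtype with at least 20. Intervals are exact (Poisson, Clopper-Pearson, and conditional binomial for ratios, scipy 1.17.1). Beside a share of 0, the share that 3 counts would give is stated. Shares were also computed as the expected share after thinning each cell to 2000 UMIs, without shallower cells. Pathway genes were named if past 2-fold in both contrasts of a class, with Socs3, Stat3 and Jak1 always, and further genes called at one time were listed after their values were seen. Likeness was ranked among genes with a mean of at least 10 CPM. The code was tested on simulated counts of the day 14 contrast, summed over each class and drawn with counting error only. Spread between cells and between mice did not enter. There, 5.20% of unchanged genes passed 2-fold in non-myelinating Schwann-like, 1.10% in SGC-like and 0.984% in neuron-like cells. Of 200 genes given a 4-fold change, 81.5%, 96.5% and 97.0% were recovered in the same order of classes. By counting error alone, calls in non-myelinating Schwann-like cells are thus less firm. The simulation cannot show how firm calls in any class are against the spread between cells and mice. Of 31053 gene identifiers, 30934 were matched to GENCODE for positions. Some genes that these rules select are not reported here.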

Additional observations from a re-analysis of the deposited data

How the results depend on the processing

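The libraries differ in depth and each condition has 1 library, so mouse-to-mouse spread is unknown and low counts limit Osmr in glia, Il6ra outside macrophage-like cells and all ligands. No paired analysis was possible because there were no replicates to pair. Of 110 alternative log2 ratios for members in the class of their highest naïve level, 105 stayed within counting error and 5 moved, with none reversed. Shares of cells were far less stable, since 110 of 115 moved when 2 UMIs were required and 76 of 115 moved after thinning. The ratio of Cntfr in SGC-like cells at day 14, -0.15, was -0.01 at Leiden resolution 2 and 0.00 with each cell gated by markers. The ratio of Lifr in endothelial-like cells, 0.01 at day 14, was 0.14 under a stricter filter (1000 genes, 10% mitochondrial), and 0.20 at day 7 became 0.10 as a mean of each cell's fraction and 0.04 with each cell thinned and counted once. Among 1028 other values 65 moved and 1 reversed, Socs3 in neuron-like cells at day 7, which was 1.42 and became -1.84 with each cell gated by markers, in 61 naïve and 43 day 7 cells. Members past 2-fold at day 7 numbered 0, and 1 with the stricter filter, with no cell filter, with doublets kept, at resolution 0.5, without mitochondrial UMIs, with a minimum of 10 UMIs, or without cells holding an endothelial or macrophage marker UMI. At day 14 they numbered 6, and 2 with the stricter filter or a minimum of 50 UMIs, where pathway pairs numbered 10 at day 7 and 18 at day 14. Under the stricter filter the remaining cells were clustered and named anew. No cluster took the SGC-like name there, so no SGC-like values could be compared. Over the alternatives that gave a value, the day 14 ratio of Osmr ran from 1.22 to 1.46 in SGC-like, 1.85 to 2.46 in myelinating Schwann-like, 0.67 to 1.71 in non-myelinating Schwann-like and 0.73 to 1.48 in fibroblast-like cells, and that of Il6ra from 1.31 to 2.81 in SGC-like and 1.36 to 2.13 in neuron-like cells. The alternatives that left out marker-holding cells, left out the interferon-led Schwann cluster or added the day 7 cluster led by Sprr1a to the neurons were chosen after seeing the data. The cause of these shifts was not tested.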
